A study of Mus musculus with 12 samples.

Results

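The genes described here are 10 enzymes and cofactors that modify, process or crosslink collagen, taken from the count table by symbol, out of 55453 genes listed. They are the lysyl oxidases Lox, Loxl1, Loxl2, Loxl3 and Loxl4, the lysyl hydroxylases Plod1 and Plod2, the prolyl 4-hydroxylase alpha chains P4ha1 and P4ha3, and the procollagen C-proteinase enhancer Pcolce. They are grouped by what they do, and all 10 had enough reads to be tested. RNA-Seq was performed on whole skin of 12 mice of the C57/BL6 strain, all of them female young adults, divided into 4 groups of 3. The WT PBS and KO PBS groups were WT and Thy1-knockout animals that received PBS, and the WT BLM and KO BLM groups were their counterparts that received bleomycin. Bleomycin is a DNA-damaging drug that produces fibrosis of the dermis when it is injected daily under the skin of the back, PBS is its saline vehicle, and tissue was taken at day 21. The knockout is carried in the germline, so every cell type lacked the intact gene and no tissue-specific Cre was involved. The comparisons address whether this enzyme set responds to bleomycin and whether that response depends on Thy-1, a surface glycoprotein of fibroblasts.

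Collagen chains are modified before, during and after secretion. In the endoplasmic reticulum, prolyl 4-hydroxylases make the hydroxyproline that holds the triple helix together, and lysyl hydroxylases make the hydroxylysine that carries sugars and later enters crosslinks. Outside the cell the C-terminal propeptide is cut off with the help of Pcolce, and lysyl oxidases, which are copper enzymes, then oxidize lysine and hydroxylysine side chains so that neighboring collagen or elastin molecules join covalently. Stiff, hydroxylysine-rich crosslinks are a textbook feature of fibrotic skin.

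Library totals ranged from 26473700 to 38890450 counts, with a median of 31494965. Thy1, the targeted gene, was read at 104, 115 and 150 CPM (counts per 1000000 counts of the library) in WT PBS, 231, 349 and 416 CPM in WT BLM, 45.6, 96.9 and 77.4 CPM in KO PBS and 84.7, 128 and 96.4 CPM in KO BLM. Transcripts were therefore still counted in the knockout, in every mouse under the WT mice with the same injection, although neither the log2 fold change of -0.75 ± 0.30 under PBS nor that of -1.69 ± 0.31 under bleomycin passed the test (edgeR adjusted p = 0.224 and 0.112). The libraries also differed in tissue content. The mean log2 CPM of 21 genes of the growing hair follicle was 9.65 to 10.3 in WT PBS and -0.11 to 3.77 in WT BLM. In KO PBS it was 10.2 in mouse 136 against -0.41 in mouse 137 and 2.38 in mouse 139, and in KO BLM it was 9.16 in mouse 141, 5.34 in mouse 143 and 6.30 in mouse 144. In bulk skin, more cells of a type and more RNA per cell cannot be told apart, and mice 136 and 141 are named beside many of the results that rest on them.

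In PBS-injected WT skin the 10 genes covered a wide range of levels. Per kilobase of exon, Pcolce was highest in WT PBS at 24.0 ± 2.79 CPM per kb (SD, n = 3), followed by Loxl1 at 15.1 ± 1.11, Loxl2 at 9.99 ± 1.51 and P4ha1 at 8.73 ± 0.60 CPM per kb. Plod1 at 5.75 ± 0.46, Plod2 at 4.85 ± 1.74 and Lox at 3.90 ± 1.23 CPM per kb came next, and Loxl3 at 1.60 ± 0.10, Loxl4 at 1.29 ± 0.10 and P4ha3 at 0.52 ± 0.44 CPM per kb were lowest. Among neighbors in this order, the ranges of the 3 mice overlapped between Loxl2 and P4ha1, between Plod1 and Plod2, and between Plod2 and Lox, and the other neighbors were separate. In WT BLM the order was Loxl1 at 57.2 ± 16.0, Pcolce at 53.9 ± 24.4, Loxl2 at 41.1 ± 13.3, Lox at 26.9 ± 8.41, P4ha1 at 19.1 ± 0.92, Plod1 at 17.6 ± 4.08, Loxl3 at 13.2 ± 2.46, P4ha3 at 9.17 ± 4.06, Plod2 at 8.77 ± 3.46 and Loxl4 at 2.32 ± 1.06 CPM per kb. Loxl4 stood clear of the rest at the bottom of that order, and P4ha3 had left the lowest place.

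WT skin responded to bleomycin across most of the set. By edgeR's quasi-likelihood test with Benjamini-Hochberg adjustment, 8 of the 10 genes rose and none fell, where 19.8% of the 18311 genes tested rose. The median log2 fold change of the 10 was 1.77, against 0.02 over all genes tested. The 3 WT BLM mice all lay above the 3 WT PBS mice for 8 of the 10 genes, a separation seen for 28.3% of all genes tested. Loxl4 and Plod2 did not pass the test, while Plod2 and Pcolce were those whose groups overlapped.

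**Figure D1:**
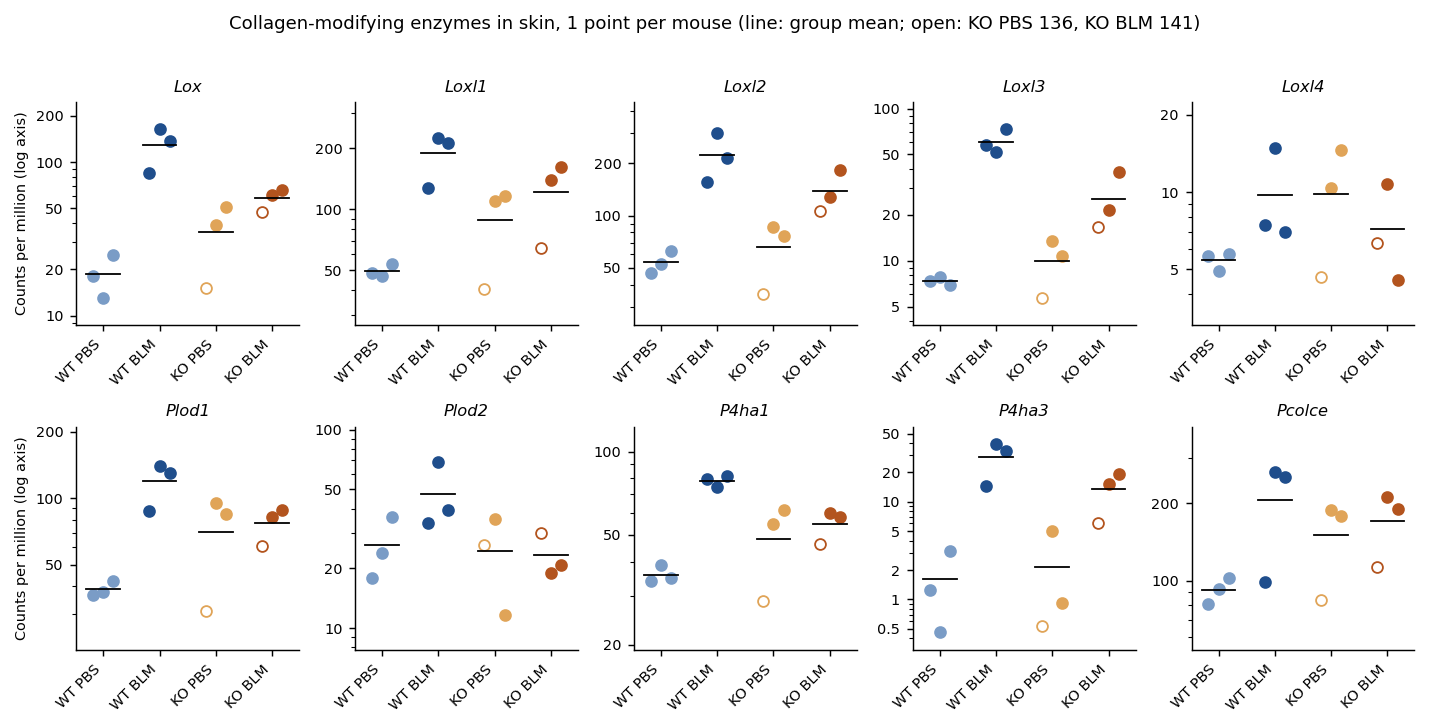
CPM of each gene (vertical log axis) in each of the 12 mice, by group, with black lines at the group means and open points for KO PBS mouse 136 and KO BLM mouse 141. Lox runs from 13.1 to 24.7 CPM in WT PBS and from 84.5 to 163 CPM in WT BLM, while the KO BLM mice lie between 47.3 and 65.5 CPM; mouse 136 is the lowest KO PBS mouse for 9 of the 10 genes.

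Of the lysyl oxidases, Lox, the founding member, which crosslinks both collagen and elastin, had 18.2, 13.1 and 24.7 CPM in the WT PBS mice and 84.5, 163 and 137 CPM in the WT BLM mice. Even the lowest bleomycin mouse was above 3 times the highest PBS mouse, and the log2 fold change was 2.78 ± 0.43 (SE, edgeR adjusted p = 0.00439). Loxl3 (chr6:83034173-83052562 in GRCm38), a paralog with scavenger receptor domains, had 7.41, 7.80 and 6.90 CPM against 57.3, 51.6 and 73.4 CPM. Its PBS mice were closely alike and its bleomycin mice far above them, which gave a log2 fold change of 3.04 ± 0.36 (edgeR adjusted p = 0.00302), the smallest adjusted p of the 10.

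Loxl1 (chr9:58287738-58313186), known mainly for its role in elastic fibers, had 48.4, 47.1 and 54.0 CPM in WT PBS and 128, 225 and 213 CPM in WT BLM, with no overlap and a log2 fold change of 1.92 ± 0.43 (edgeR adjusted p = 0.0112). Loxl2 (chr14:69609068-69695834), which crosslinks basement membrane collagen IV as well as fibrillar collagen, had 46.6, 52.6 and 62.7 CPM against 155, 298 and 213 CPM, a log2 fold change of 2.04 ± 0.35 (edgeR adjusted p = 0.00557). Loxl4 (chr19:42593982-42612813) had 5.61, 4.93 and 5.73 CPM against 7.44, 14.9 and 6.96 CPM. These groups were apart too, but a single mouse, WT BLM 146, was far above the other two, and the log2 fold change of 0.85 ± 0.45 did not pass (edgeR adjusted p = 0.157).

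The lysyl hydroxylases differed from each other. Plod1 (chr4:147909753-147936767), the enzyme that hydroxylates lysines in the helix, had 36.5, 37.9 and 42.4 CPM in WT PBS and 88.0, 140 and 130 CPM in WT BLM. The groups were well apart, with a log2 fold change of 1.62 ± 0.35 (edgeR adjusted p = 0.0108). Plod2 (chr9:92542223-92608428), which hydroxylates the telopeptide lysines at the chain ends and thereby sets up the hydroxylysine type of crosslink, had 18.0, 24.0 and 36.4 CPM against 33.9, 68.6 and 39.4 CPM. The lowest bleomycin mouse fell among the PBS mice, and the log2 fold change of 0.86 ± 0.42 did not pass (edgeR adjusted p = 0.13).

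Both prolyl 4-hydroxylase alpha chains rose, from very different starting levels. P4ha1 (chr10:59323296-59373304), the catalytic chain of the main isoenzyme, had 34.1, 38.8 and 34.9 CPM in WT PBS and 79.6, 74.3 and 81.7 CPM in WT BLM. It was the most even of the responses, with a log2 fold change of 1.13 ± 0.23 (edgeR adjusted p = 0.00881). P4ha3 (chr7:100285520-100319699), a chain of low level in most tissues, had 1.25, 0.461 and 3.13 CPM against 14.4, 38.8 and 33.0 CPM, which rested on 14 to 123 counts per PBS mouse and 368 to 1189 counts per bleomycin mouse. The bleomycin mice were all far above the PBS mice, the log2 fold change was 4.13 ± 0.95 (edgeR adjusted p = 0.0122), and no other gene of the 10 had a larger one. The test for P4ha3 passed in 11 of the 12 refits that left out 1 mouse each and gave an adjusted p of 0.0517 without WT PBS mouse 159.

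Pcolce (chr5:137605103-137613784), a secreted glycoprotein that speeds the removal of the procollagen C-propeptide, had 80.6, 92.4 and 102 CPM in WT PBS and 98.5, 265 and 254 CPM in WT BLM. WT BLM mouse 145 sat among the PBS mice and the other bleomycin mice were far above them. Its log2 fold change of 1.17 ± 0.40 was just past the threshold (edgeR adjusted p = 0.0474) and missed it in 11 of 20 alternative settings, over which the adjusted p ranged from 0.0136 to 0.886.

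**Figure D2:**
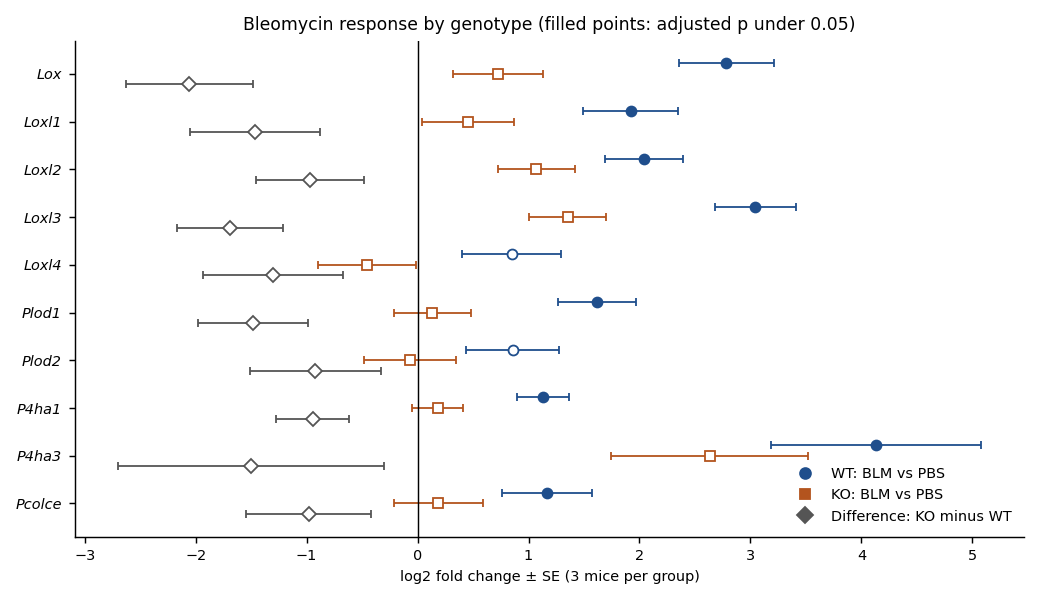
Log2 fold change of bleomycin over PBS in WT mice (circles), in KO mice (squares) and the difference between them (diamonds), with bars of 1 SE from edgeR on 3 mice per group; filled points passed an adjusted p of 0.05. In WT mice 8 of the 10 points are filled, from 1.13 for P4ha1 to 4.13 for P4ha3, no KO or difference point is filled, and all 10 differences lie to the left of 0.

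Several marker lists moved with the WT comparison, and the part of the muscle and macrophage lists in these rises was not tested. Of 21 growing hair genes, 11 fell and all had non-overlapping groups, 14 of 15 skeletal muscle genes rose (mean log2 CPM 8.28 to 8.56 in WT PBS and 9.99 to 11.03 in WT BLM), and 9 of 10 macrophage genes rose (4.75 to 5.97 and 7.10 to 7.79). Of 10 fibroblast genes 3 rose and 2 fell, with a mean log2 CPM of 6.43 to 6.77 in WT PBS and 5.57 to 7.35 in WT BLM. The summed level of no list was 0 in any mouse. Endothelial genes rose in 5 of 8, smooth muscle and pericyte genes in 2 of 8, epidermal keratinocyte genes in 1 of 8, adipocyte genes in 0 of 8 and hypoxia response genes in 6 of 12. Over all 18311 genes tested, 3633 rose and 2589 fell, and 5258 had every WT BLM mouse below every WT PBS mouse. With the growing hair level of each mouse as a covariate, 0 of the 10 enzymes and 14 of 18311 genes (0.0765%) were called by edgeR in the WT comparison. An unadjusted p under 0.05 was reached by 3 of the 10, and the share over all genes was not computed for this fit. The log2 fold changes of the 10 then ran from 0.27 for Loxl4 to 2.35 for P4ha3, all of them positive. WT PBS and WT BLM mice did not overlap in growing hair level, so its effect and that of bleomycin cannot be told apart here.

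Promoter sequence was read from RefSeq (GRCm38.p6) for the members that its table held, which were Loxl4, Plod1, P4ha1, P4ha3 and Pcolce. The 250 bases before the start of 3 of these are shown, 5′ to 3′ on the gene's own strand, because they contrast 2 genes that rose in WT skin, P4ha1 at chr10:59323046-59323295 (+ strand) and P4ha3 at chr7:100285270-100285519 (+ strand), with Loxl4 at chr19:42612807-42613056 (- strand), the lysyl oxidase that did not pass. Capitals mark the core of the hypoxia response element (ACGTG or GCGTG, on either strand) and the GC box (GGGCGG, on either strand), and adjoining GC boxes can overlap.
P4ha1: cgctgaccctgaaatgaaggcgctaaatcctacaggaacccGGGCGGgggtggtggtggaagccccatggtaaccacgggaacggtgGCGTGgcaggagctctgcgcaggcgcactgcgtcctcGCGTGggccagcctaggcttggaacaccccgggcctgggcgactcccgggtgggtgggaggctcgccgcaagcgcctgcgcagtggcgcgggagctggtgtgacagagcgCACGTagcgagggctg
P4ha3: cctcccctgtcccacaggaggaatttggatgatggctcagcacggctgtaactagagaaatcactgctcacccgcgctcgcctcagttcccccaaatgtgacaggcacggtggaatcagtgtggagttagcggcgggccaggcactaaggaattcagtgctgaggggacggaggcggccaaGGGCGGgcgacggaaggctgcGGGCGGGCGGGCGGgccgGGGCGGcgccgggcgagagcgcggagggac
Loxl4: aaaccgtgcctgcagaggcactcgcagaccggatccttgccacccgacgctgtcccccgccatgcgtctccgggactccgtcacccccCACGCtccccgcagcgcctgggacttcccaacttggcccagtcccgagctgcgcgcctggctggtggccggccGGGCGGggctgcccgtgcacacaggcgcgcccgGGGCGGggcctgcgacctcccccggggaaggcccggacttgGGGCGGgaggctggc

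P4ha1 held 3 hypoxia response cores, which began 163, 126 and 16 bases before the start, and 1 GC box. P4ha3 held no such core and 5 GC boxes, all within the last 69 bases, and Loxl4 held 1 core and 3 GC boxes. Of 32851 mouse promoters of the same length, 38.6% held the hypoxia core and 32.7% the GC box. The AP-1 site (TGANTCA, on either strand), held by 6.75% of all promoters, was in none of the 5 windows. These matches describe the letters of the windows, whose base composition was 69.6% G or C for P4ha1, 67.2% for P4ha3 and 76.0% for Loxl4, and factor binding was not measured.

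In Thy-1–KO skin, none of the 10 genes passed the test for bleomycin against PBS, where 0.306% of all genes tested did. By edgeR the adjusted p ranged from 0.115 for Loxl3 to 0.946 for Plod2, and 3 of the 10 had an unadjusted p under 0.05, as did 20.0% of all genes. DESeq2 called 2, which were Loxl3 and P4ha3, against 3.48% of the 34528 genes it tested. That set kept the genes of low count that were left out of the 18311 of edgeR. The DESeq2 shares given here and below are therefore lower than they would be over edgeR's genes. The median log2 fold change was 0.32. With the growing hair level as a covariate edgeR called Loxl2, Loxl3 and P4ha3 as higher, against 8.99% of all genes called. The 3 KO BLM mice all lay above the 3 KO PBS mice for 3 of the 10 genes, as they did for 10.8% of all genes tested.

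Those 3 genes were Loxl2, Loxl3 and P4ha3. Loxl3 had 5.68, 13.5 and 10.8 CPM in KO PBS and 16.7, 21.7 and 38.2 CPM in KO BLM, which gave a log2 fold change of 1.35 ± 0.34 (edgeR adjusted p = 0.115). Loxl2 had 35.4, 86.1 and 76.7 CPM against 106, 128 and 183 CPM, a log2 fold change of 1.07 ± 0.34 (edgeR adjusted p = 0.159). P4ha3 had 0.532, 5.06 and 0.924 CPM against 6.12, 15.2 and 19.4 CPM, a log2 fold change of 2.63 ± 0.89 (edgeR adjusted p = 0.164). In each of the 3 the lowest KO PBS mouse was 136 and the lowest KO BLM mouse was 141, the mice with the highest growing hair level of their groups.

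The remaining 7 genes overlapped between KO PBS and KO BLM. Lox had 15.2, 38.7 and 51.1 CPM in KO PBS and 47.3, 61.1 and 65.5 CPM in KO BLM, and its overlap came from KO PBS mouse 139 and KO BLM mouse 141. Plod1 had 31.1, 95.6 and 84.8 CPM against 61.1, 82.4 and 88.4 CPM, so that KO PBS mouse 137 exceeded every KO BLM mouse. P4ha1 had 28.9, 54.6 and 61.3 CPM against 46.2, 60.1 and 57.8 CPM, with a log2 fold change of 0.18 ± 0.23. For Plod1 and P4ha1 the KO PBS group spanned the whole range of the KO BLM group.

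Plod2 and Loxl4 had fitted changes below 0 in the knockout, within 1 SE of 0 for Plod2. The Plod2 values were 26.2, 35.3 and 11.7 CPM in KO PBS and 30.1, 18.9 and 20.9 CPM in KO BLM, which gave a log2 fold change of -0.07 ± 0.42. Loxl4 had 4.69, 10.4 and 14.5 CPM against 6.31, 10.7 and 4.56 CPM, a log2 fold change of -0.46 ± 0.44. Loxl1, at 40.5, 110 and 116 CPM against 64.5, 139 and 163 CPM, and Pcolce, at 84.3, 189 and 178 CPM against 113, 212 and 189 CPM, had log2 fold changes of 0.46 ± 0.41 and 0.19 ± 0.40. In both of these genes mouse 136 was the lowest of KO PBS and mouse 141 the lowest of KO BLM.

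The KO PBS and WT PBS groups were compared next, to see whether the enzymes differed between genotypes without bleomycin. No gene passed, against 0.0655% of all genes tested, and no gene's 2 groups were apart. Every KO PBS mouse lay above every WT PBS mouse for 1579 of the 18311 genes tested, and below for 1889. DESeq2 also called 0, against 2.16% of the genes it tested, while 2 of the 10, Lox and Plod1, had an unadjusted p under 0.05 by edgeR, against 20.4% of all genes. The log2 fold change of KO over WT was positive for 9 of the 10 genes, with a median of 0.58. It was 0.91 ± 0.41 for Lox (edgeR adjusted p = 0.245), 0.86 ± 0.35 for Plod1 (0.228) and 0.84 ± 0.42 for Loxl1 (0.271). In each of these genes KO PBS mouse 136 lay below or among the WT PBS mice and the other KO PBS mice, 137 and 139, lay above all of them. With the growing hair level as a covariate, 5 of the 10 fold changes were positive and 5 negative, with a median of -0.03, and that of Plod1 was 0.0069. Skeletal muscle genes were higher in every KO PBS mouse than in every WT PBS mouse for 10 of 15, with a median log2 fold change of 1.83, and the part of muscle content in the enzyme values was not tested.

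Under bleomycin all 10 genes had lower fitted levels in KO than in WT, with a median log2 fold change of -0.65, and none passed the test by edgeR, where 0.0928% of all genes tested did. DESeq2 called 1, which was Loxl3, against 1.69% of the genes it tested. By edgeR 4 of the 10 had an unadjusted p under 0.05, as did 16.6% of all genes, and the same 4 were those for which every KO BLM mouse was below every WT BLM mouse, as for 12.9% of all genes tested. Loxl3 had a log2 fold change of -1.25 ± 0.34 (edgeR adjusted p = 0.212), Lox of -1.15 ± 0.41 (0.26), Plod2 of -1.02 ± 0.42 (0.281) and P4ha1 of -0.52 ± 0.23 (0.296). P4ha1 had the smallest change of the 4 but the clearest gap for its spread, with 46.2 to 60.1 CPM in KO BLM and 74.3 to 81.7 CPM in WT BLM. The log2 fold change of Loxl1 was -0.63 with all mice and -0.29 without KO BLM mouse 141, and that of Pcolce was -0.27 and -0.0054.

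Tissue content differed between the bleomycin groups as well. All 21 growing hair genes were higher in every KO BLM mouse than in every WT BLM mouse, with a median log2 fold change of 5.64. The macrophage genes were lower without overlap for 6 of 10, with a median of -0.73, and all 15 skeletal muscle genes had lower fitted levels, with a median of -0.99 and 3 of them apart. None of these marker genes passed the edgeR test, and the part of macrophage and muscle content in the enzyme values was not tested. With the growing hair level as a covariate the fitted differences of the enzymes shrank to a median of -0.07, and those of Loxl1, Plod1 and Pcolce turned positive. Loxl3 was then at -0.58 ± 0.28 and P4ha1 at -0.02 ± 0.17, and 0 of the 10 were called. The growing hair level ran from 5.34 to 9.16 in KO BLM and from -0.11 to 3.77 in WT BLM. Its effect and that of genotype therefore cannot be told apart here.

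The WT and KO responses were then set against each other with an interaction term. All 10 differences, KO minus WT, were negative, with a median of -1.38 against -0.05 over all genes tested. None passed by edgeR, where 0% of all genes tested did, and 5 of the 10 had an unadjusted p under 0.05, as did 31.1% of all genes. DESeq2 called 3, which were Lox, Loxl3 and Plod1, against 9.42% of the genes it tested. The smallest edgeR adjusted p was 0.0755 for Lox, with a difference of -2.06 ± 0.58, followed by 0.0774 for Loxl3, with -1.69 ± 0.48, and 0.0949 for Plod1, with -1.48 ± 0.49. The difference for P4ha3, -1.50 ± 1.20, had the widest error of the 10. With the growing hair level as a covariate 0 of the 10 were called and the negative direction was lost for 5 of them, with a median of 0.00025. The difference of Loxl3 was then -0.23 ± 0.49, that of Plod1 -0.0021 ± 0.54 and that of Lox -0.80 ± 0.76. That covariate differs so widely between WT PBS and WT BLM that its effect and that of bleomycin cannot be told apart. These comparisons share groups with one another, KO PBS and WT BLM among them, so their directions are not independent of each other.

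The comparisons that use KO PBS depended on mouse 136. Without it, 5 of the 10 genes were higher in KO PBS than in WT PBS by edgeR, where 36.7% of all genes tested were called in either direction: Lox with a log2 fold change of 1.27 ± 0.31 (adjusted p = 0.0115), Plod1 with 1.21 ± 0.21 (0.00261), Loxl4 with 1.20 ± 0.39 (0.0381), Loxl1 with 1.18 ± 0.34 (0.0227) and P4ha1 with 0.69 ± 0.13 (0.00359). The KO response to bleomycin then had 1 gene called, Loxl3 with 1.07 ± 0.31 (adjusted p = 0.0478), against 14.0% of all genes. The fitted KO responses of Plod1, P4ha1 and Pcolce changed sign, to -0.22 ± 0.21, -0.08 ± 0.13 and -0.10 ± 0.38.

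Under bleomycin, 3 genes were then called lower in KO, Lox, Loxl3 and P4ha1, against 6.89% of all genes called, although mouse 136 is in neither of those groups and the fold changes moved by no more than 0.01 on the log2 scale. The spread, which all groups share in the fit, was smaller without it, and the SE of Lox in that comparison went from 0.41 to 0.28. The difference of responses passed for 7 of the 10 genes, all of them smaller in KO, against 39.9% of all genes, with P4ha1 at -1.21 ± 0.17 (edgeR adjusted p = 0.000889), Plod1 at -1.83 ± 0.28 (0.00113) and Lox at -2.41 ± 0.42 (0.00199). Plod2, P4ha3 and Pcolce did not pass. With mouse 141 left out as well, 7 genes were called between the PBS groups, against 40.9% of all genes, and 2 in the KO response, against 22.3%. Between the bleomycin groups 0 were then called, against 4.36%, and 6 in the difference, against 38.6%. Mouse 136 stood within the WT PBS range in growing hair level (10.2 against 9.65 to 10.3). In skeletal muscle level it was just above the WT PBS range (8.66 against 8.28 to 8.56). KO PBS mice 137 and 139 had muscle levels of 10.68 and 10.43. The part of these tissue differences in the enzyme values was not tested.

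**Figure D3:**
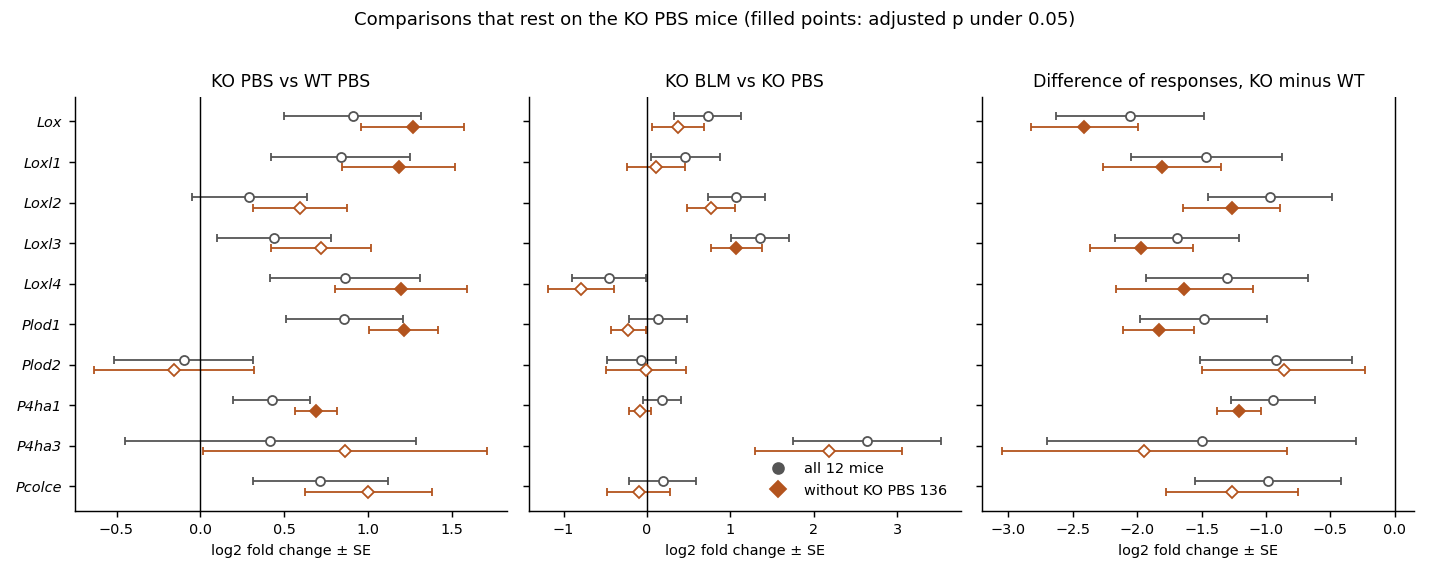
Log2 fold change with bars of 1 SE from edgeR for the comparisons that use the KO PBS mice, with all 12 mice (circles) and without KO PBS mouse 136 (diamonds); filled points passed an adjusted p of 0.05. Without that mouse 5 genes are filled for KO PBS against WT PBS, 1 for the KO response and 7 for the difference of responses, and none is filled with all mice.

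Other genes of collagen modification were read from a list of 23, of which 22 could be tested. In WT skin 14 rose and 1 fell after bleomycin, and 8 others did not pass or were not tested. Those that rose most were Fkbp10, a collagen chaperone needed for lysyl hydroxylation of the telopeptides, at a log2 fold change of 2.12 ± 0.41 (edgeR adjusted p = 0.00708), the transglutaminase Tgm2 at 2.11 ± 0.52 (0.016), the N-propeptide protease Adamts14 at 2.04 ± 0.38 (0.00681) and P4ha2 at 1.68 ± 0.37 (0.0106). Plod3, the third lysyl hydroxylase, rose by 1.13 ± 0.17 (0.00437). Pcolce2, the paralog of Pcolce, fell to a level 4.01-fold lower (edgeR adjusted p = 0.0121). Bmp1, the protease that Pcolce assists and that also activates Lox, had a log2 fold change of 0.46 ± 0.21 and did not pass (edgeR adjusted p = 0.11). In KO skin none of the 22 passed by edgeR, where 0.306% of all genes tested did. An unadjusted p under 0.05 was reached by 8, and by 20.0% of all genes.

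The proteins on which these enzymes act moved in the same comparison. Of 6 substrates 5 rose in WT skin, with Col1a1 at 2.08 ± 0.56 (edgeR adjusted p = 0.0213), Col5a1 at 2.67 ± 0.49 (0.00626) and Col5a2 at 2.37 ± 0.42 (0.00568), while elastin, Eln, had a log2 fold change of -0.79 ± 0.50 and did not pass (0.234). Of 7 matrix partners of the lysyl oxidases 4 rose, with Postn at 2.90 ± 0.59 (edgeR adjusted p = 0.00841), Ltbp2 at 2.79 ± 0.45 (0.00477), Fn1 at 2.75 ± 0.36 (0.00329) and Efemp2 at 1.40 ± 0.35 (0.0168). In KO skin 0 of the 6 substrates and 0 of the 7 partners passed by edgeR, against 0.306% of all genes tested. In each list 2 had an unadjusted p under 0.05, as did 20.0% of all genes. Col1a1 had a log2 fold change of 1.02 ± 0.55 in KO skin (edgeR adjusted p = 0.318).

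The make-up of each enzyme family was read in every mouse as a share of the family's counts per kb, which does not depend on library scaling and was not tested. In the lysyl oxidase family, Lox made up 12.1% ± 2.62 in WT PBS and 18.9% ± 1.04 in WT BLM (SD, n = 3), and Loxl3 5.08% ± 0.81 and 9.87% ± 3.07. Loxl1 went from 47.5% ± 1.82 to 40.5% ± 2.15, and Loxl4 from 4.06% ± 0.34 to 1.64% ± 0.49. For all 4 of these the WT PBS and WT BLM mice were apart. Loxl2 held 31.3% ± 2.26 and 29.0% ± 2.91, with overlap. In KO BLM the shares were 15.4% ± 2.71 for Lox, 43.9% ± 6.90 for Loxl1, 31.9% ± 4.32 for Loxl2, 6.67% ± 1.16 for Loxl3 and 2.25% ± 1.07 for Loxl4, and those of Lox lay between 12.9% and 18.3%, overlapping the KO PBS range of 12.9% to 16.2%. The other shares were apart between the KO groups. Those of Loxl1, Loxl3 and Loxl4 moved as in WT, while that of Loxl2, which overlapped in WT, was higher in KO BLM. Loxl1 was 50.4% to 53.5% in KO PBS and 36.1% to 49.1% in KO BLM, and Loxl2 21.5% to 26.9% and 27.5% to 36.2%. Loxl3 was 3.56% to 5.07% and 5.49% to 7.81%, and Loxl4 3.92% to 5.23% and 1.02% to 2.95%.

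The prolyl 4-hydroxylases shifted most. P4ha3 made up 4.27% ± 3.63 of the alpha chains in WT PBS and 23.5% ± 8.63 in WT BLM, while P4ha1 went from 71.0% ± 0.90 to 50.7% ± 7.09 and P4ha2 stayed at 24.7% ± 2.87 and 25.8% ± 1.54. The KO groups had the same order of shares, with P4ha3 at 3.50% ± 3.32 in KO PBS and 17.0% ± 5.08 in KO BLM, and its groups were apart in both genotypes. The P4ha1 share was apart in WT but overlapped in KO, at 60.4% to 72.5% in KO PBS and 48.9% to 66.2% in KO BLM. Among the lysyl hydroxylases, Plod1 went from 27.1% ± 1.04 to 35.1% ± 2.42 in WT without overlap, and was 34.6% ± 9.75 in KO PBS and 33.7% ± 3.0 in KO BLM. Its KO PBS share was 23.5% in mouse 136, and 38.6% and 41.7% in mice 137 and 139. The KO BLM mice ran from 30.2% to 35.6%, so the overlap rested on mouse 136. Plod2 had 22.3% ± 5.42 and 17.3% ± 4.26 in WT and 16.6% ± 8.86 and 13.1% ± 4.80 in KO, with overlap in both genotypes.

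**Figure D4:**
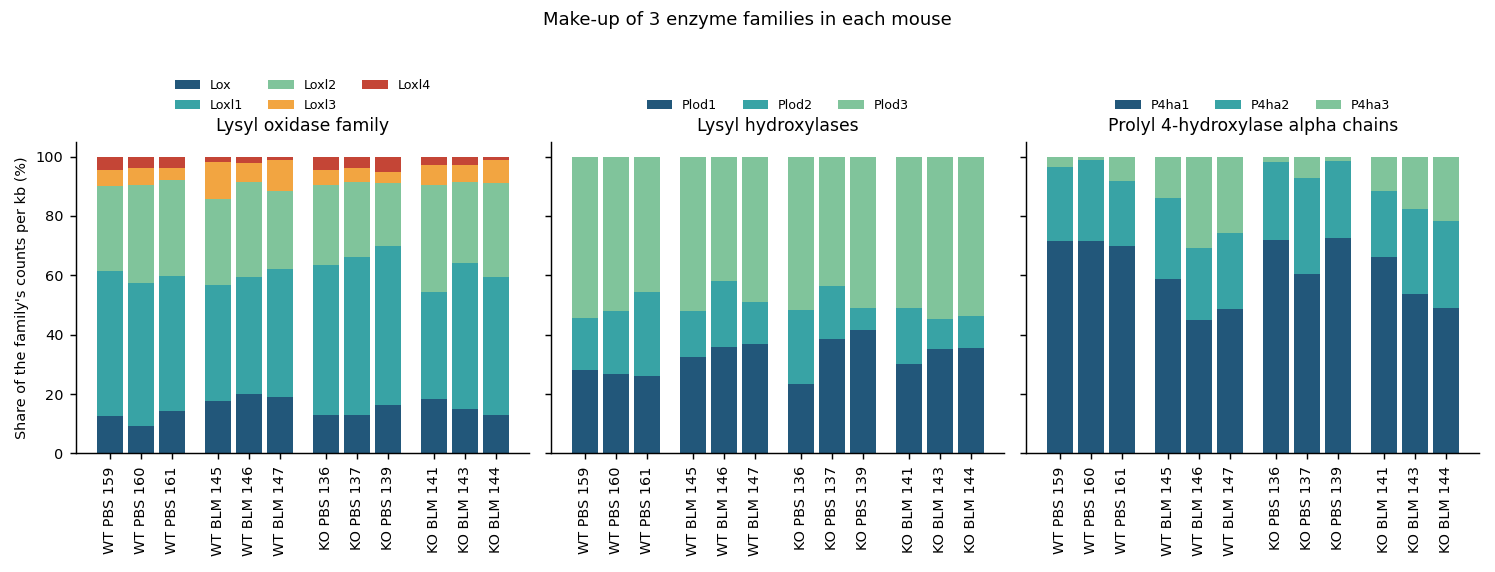
Share of each enzyme in its family's counts per kilobase of exon (vertical axis, %), as 1 stacked bar per mouse, for the lysyl oxidases, the lysyl hydroxylases and the prolyl 4-hydroxylase alpha chains. The P4ha3 segment averages 4.27% in WT PBS and 23.5% in WT BLM, and the Loxl4 segment 4.06% and 1.64%.

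Each enzyme was also expressed per 1000 counts of the fibrillar collagens Col1a1, Col1a2 and Col3a1 in the same mouse, to describe the enzyme supply relative to its substrate, without a test. The 10 genes then divided. From WT PBS to WT BLM, 5 log2 ratios were higher and 5 lower, with a median difference of -0.04, and 5 genes had groups that did not overlap. The ratio was computed for these 10 genes alone, so no share over all genes can be set beside such counts. P4ha3 had 0.19, 0.09 and 0.45 counts per 1000 collagen counts in WT PBS and 1.38, 1.18 and 1.25 in WT BLM, Loxl3 had 1.15, 1.55 and 0.98 against 5.48, 1.58 and 2.78, and Lox had 2.82, 2.59 and 3.53 against 8.09, 4.99 and 5.20. These 3 were higher in every bleomycin mouse, though Loxl3 only narrowly in WT BLM mouse 146.

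Pcolce and Loxl4 were lower per collagen count in every WT BLM mouse. Pcolce had 12.5, 18.4 and 14.5 counts per 1000 collagen counts in WT PBS and 9.43, 8.10 and 9.62 in WT BLM, and Loxl4 had 0.87, 0.98 and 0.82 against 0.71, 0.46 and 0.26. The ratios of Loxl1, Loxl2, Plod1, Plod2 and P4ha1 overlapped, with differences from -0.92 for Plod2 to 0.23 for Loxl2 on the log2 scale. WT BLM mouse 145 had the highest ratio of its group for 9 of the 10 genes and also the lowest summed level of the 6 substrates in its group, 12008 CPM against 29026 and 35621 CPM.

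In KO skin, P4ha3 alone had a ratio that was apart after bleomycin, at 0.11, 0.31 and 0.08 counts per 1000 collagen counts in KO PBS and 0.77, 0.68 and 0.92 in KO BLM. Between KO BLM and WT BLM, 9 of the 10 log2 ratios were lower in KO, with a median of -0.25, and P4ha3 was again the gene whose groups were apart, with a difference of -0.69. The Lox ratio was 5.92, 2.74 and 3.11 in KO BLM, and its highest value, in mouse 141, overlapped the WT BLM mice. The lower Lox, Loxl3, Plod2 and P4ha1 CPM of KO BLM mice came with overlapping ratios to collagen in all 4 genes. Their log2 ratios still differed, KO BLM minus WT BLM, by -0.68 for Lox, -0.90 for Loxl3, -0.56 for Plod2 and -0.11 for P4ha1.

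**Figure D5:**
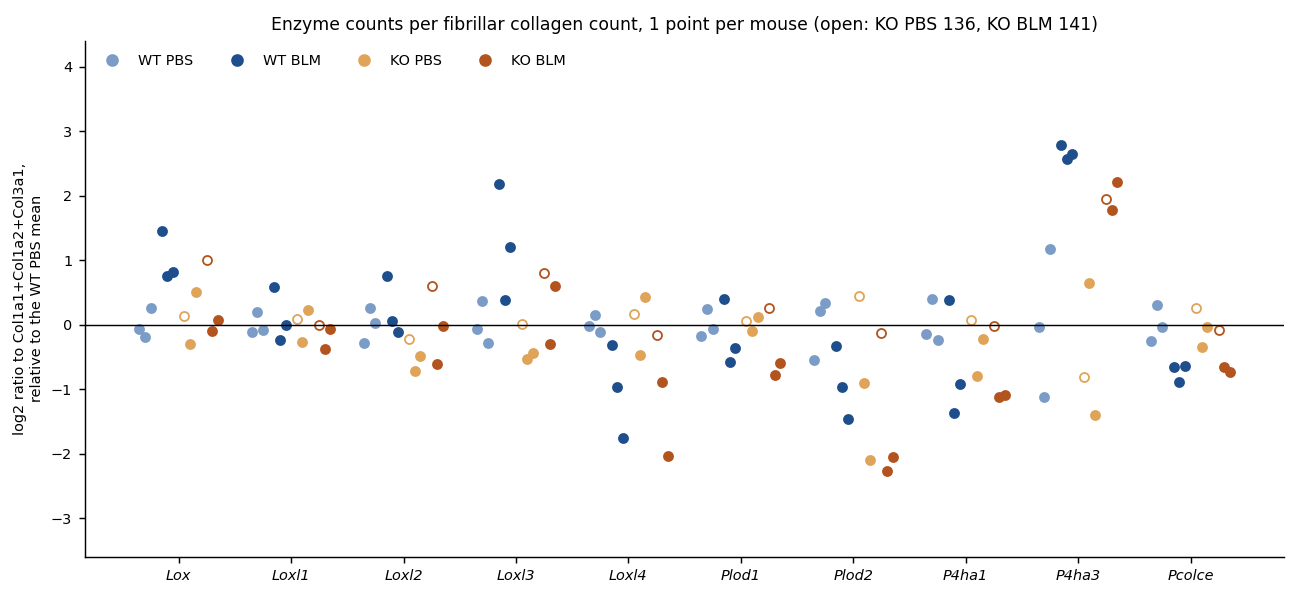
Log2 ratio of each enzyme's counts to the summed counts of Col1a1, Col1a2 and Col3a1 in the same mouse (vertical axis), relative to the WT PBS mean, 1 point per mouse, with open points for KO PBS mouse 136 and KO BLM mouse 141. All WT BLM points of Lox, Loxl3 and P4ha3 lie above the WT PBS points, and those of Loxl4 and Pcolce lie below them.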

How the data were processed

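The authors deposited raw read counts per gene for 12 skin libraries (stranded mRNA, 1 mouse each). The submitters' processing notes name GRCm38.p6 and MultiQC 1.7, and the counting tool is not given in the sources used here. The 10 genes and all gene lists were chosen with earlier results of these data known, and all 10 genes are described. Genes with at least 10 scaled counts in a group's worth of libraries and 15 in total (filterByExpr) were kept, 18311 in all. Counts were fitted in edgeR 4.0.16 (TMM, quasi-likelihood, 4 group means sharing 1 spread), with Benjamini-Hochberg adjustment over all genes tested and a threshold of 0.05. SEs were derived from the F statistic. CPM use TMM-scaled library sizes. The fit was checked on simulated counts. Exon lengths and positions are from GENCODE M21 (GRCm38), and promoters from RefSeq. Of the lists, values are given for genes called in WT skin, up to 4 per direction by fold change, plus Plod3, P4ha2, Bmp1, Col1a1, Thy1 and Eln, the last named after its values were seen. Mice are separate animals. Alternatives were DESeq2 1.42.0, other scalings and filters, the 2 groups alone, a hair covariate and leaving out mice.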

Additional observations from a re-analysis of the deposited data

How the results depend on the processing

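The numbers of the 10 enzymes called stayed within 1.5 times the reported count in 86 of 99 alternative fits. In every comparison but the WT response the reported count was 0, so a fit stayed within it there only by calling 0 too. With 1 mouse left out, edgeR called 6 to 8 genes in the WT response, 0 to 1 in the KO response, 0 to 5 between the PBS groups, 0 to 3 between the bleomycin groups and 0 to 7 in the difference of responses. Calls over all 18678 to 18783 genes tested moved widely too. In the same order they ran from 2615 to 8565, 0 to 2632, 6 to 6870, 5 to 1292 and 0 to 7470. With KO PBS mouse 136 and KO BLM mouse 141 left out together, 2 genes were called in the KO response, 7 between the PBS groups and 6 in the difference. DESeq2 called 2 in the KO response, 1 between the bleomycin groups and 3 in the difference. With the growing hair level as a covariate 0 were called in the WT response and 3 in the KO response. That covariate separates WT PBS from WT BLM, so its effect and that of bleomycin cannot be told apart there. It also separates KO BLM from WT BLM, where its effect and that of genotype cannot be told apart. Of 990 refitted fold changes of single enzymes, 904 kept their direction and side of the threshold, 26 changed sign without being past it in either fit, 41 passed newly and 19 were lost, 8 of them with the hair covariate and the rest of Pcolce, apart from P4ha3 without WT PBS mouse 159. With 1 mouse left out, sign changes put the KO response of Plod1 between -0.22 and 0.41, of Plod2 between -0.40 and 0.30, of P4ha1 between -0.083 and 0.39 and of Pcolce between -0.10 and 0.40, the PBS difference of Plod2 between -0.46 and 0.25 and of P4ha3 between -1.16 and 1.40, and the difference of responses of P4ha3 between -2.45 and 0.073. With both mice left out the KO response of Plod1 was -0.080. With the hair covariate the PBS differences of Loxl1, Loxl2, Loxl3, Plod2, P4ha1 and P4ha3 were -0.059, -0.27, -0.35, 0.12, -0.16 and -1.35, the bleomycin-group differences of Loxl1, Plod1 and Pcolce 0.014, 0.0048 and 0.18, and the differences of responses of Loxl1, Loxl2, P4ha1, P4ha3 and Pcolce 0.072, 0.0026, 0.13, 1.29 and 0.078. The ratio to collagen moved by less than 1 SD in 278 of 280 recomputed values and the family shares in 152 of 176. No paired analysis was possible because every mouse has its own number. With 3 mice a group and a biological coefficient of variation of 34.9%, smaller changes may have been missed, and an exact permutation test of 3 against 3 could not have reached 0.05.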
